A study of Mus musculus with 2 samples.

Results

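The genes described here set the electrical excitability of the muscle fibre membrane: Scn4a, Clcn1, Kcnj2, Kcnj11, Abcc8 and Atp1b1. These 6 of 21829 protein-coding genes were chosen by name, and their regions were all DNase-seq peaks centred within 50 kb of any of their annotated transcript starts, with the footprints inside those peaks. This gave 36 of 94295 peaks in replicate 1 and 38 of 123291 peaks in replicate 2. DNase-seq maps accessible chromatin as sites that the enzyme DNase I cuts in nuclei, and footprints are short protected stretches within them. Both libraries came from the gastrocnemius, a calf muscle, of male B6CASTF1/J mice at an age of 4 days. B6CASTF1/J mice are hybrids of C57BL/6J and CAST/EiJ. The labels name no treatment, and each speaks of 3 males. Labelled as biological replicates 1 and 2, they form 1 group, so levels and their spread are given and no contrast was tested.

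A muscle fibre fires when voltage-gated sodium channels open, and it returns to rest through potassium and chloride channels. Scn4a encodes the pore-forming sodium channel of adult skeletal muscle, Nav1.4, and Clcn1 encodes ClC-1, the chloride channel that carries most of the resting conductance. Kcnj2 encodes Kir2.1, an inward rectifier that holds the resting potential. Kcnj11 encodes Kir6.2, the pore of the ATP-sensitive potassium channel, and Abcc8 encodes SUR1, the regulatory subunit best known from pancreatic beta cells. In muscle that role is known mainly for SUR2, the product of Abcc9. Atp1b1 encodes the beta-1 subunit of the sodium-potassium pump, which restores the ion gradients. Dominant mutations of Scn4a and mutations of Clcn1 and Kcnj2 cause inherited disorders of muscle excitability in people.

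The tissue label was compared with marker genes by their promoters, taken as the 500 bp before and after each protein-coding start. All 8 skeletal muscle markers, Myod1, Ckm and Ttn among them, had a promoter peak in both libraries. So did 4 of 4 fibroblast, 4 of 4 pericyte and smooth muscle, 3 of 4 endothelial and 2 of 4 Schwann cell markers. Counts in both libraries were 2 of 4 for pancreatic islet, 1 of 4 for neuron, and 0 of 4 each for macrophage, kidney tubule and heart. Counting either library, 3 of 4 heart markers, 1 of 4 kidney tubule markers and 0 of 4 macrophage markers had one. Over all protein-coding genes the share in both libraries was 64.1%. Whole tissue was used, so fewer cells of a type cannot be told apart from less accessibility per cell. The part of these other cells in the results below was not tested.

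The sequences shown next are those the results turn on, in mm10 coordinates on the strand of the gene, from the C57BL/6J reference. One genome copy in these mice is CAST/EiJ, whose bases were not used here. The accessible promoters of Kcnj2 and Atp1b1 come first, as the part of the promoter peak upstream of the start, with capitals marking bases inside a footprint in both libraries. Here a footprint had to lie whole inside the accessible interval.
Kcnj2, chr11:111066001-111066163, plus strand: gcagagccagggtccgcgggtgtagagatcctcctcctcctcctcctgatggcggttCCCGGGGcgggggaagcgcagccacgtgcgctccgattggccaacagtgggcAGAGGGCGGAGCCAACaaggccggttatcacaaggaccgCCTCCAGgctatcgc
Atp1b1, chr1:164458356-164458540, minus strand: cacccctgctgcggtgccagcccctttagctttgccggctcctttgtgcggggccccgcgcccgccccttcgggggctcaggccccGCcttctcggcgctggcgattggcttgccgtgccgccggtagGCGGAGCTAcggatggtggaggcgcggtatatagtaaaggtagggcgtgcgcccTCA

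The promoters of Clcn1 and Scn4a had no peak and are shown as the 250 bases before the RefSeq start (GRCm38.p6), with capitals marking matches to a searched motif. In Clcn1 these are an E-box, read on the opposite strand, and a MEF2 site, and the Scn4a stretch holds no match.
Clcn1, chr6:42286435-42286684, plus strand: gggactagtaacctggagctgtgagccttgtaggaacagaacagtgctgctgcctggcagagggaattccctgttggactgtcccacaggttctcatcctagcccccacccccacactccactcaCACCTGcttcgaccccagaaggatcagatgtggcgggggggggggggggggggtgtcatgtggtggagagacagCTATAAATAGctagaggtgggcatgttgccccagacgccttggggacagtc
Scn4a, chr11:106349391-106349640, minus strand: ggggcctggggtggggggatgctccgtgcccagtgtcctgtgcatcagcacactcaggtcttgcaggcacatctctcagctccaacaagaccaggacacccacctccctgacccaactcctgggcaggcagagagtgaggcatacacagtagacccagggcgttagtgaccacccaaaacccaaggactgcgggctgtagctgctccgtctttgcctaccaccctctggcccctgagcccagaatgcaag

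Of the 4 distal shared intervals around Scn4a, 3 are shown, because the gene had no promoter peak, again with capitals for bases inside a footprint in both libraries.
Scn4a upstream, chr11:106351020-106351141, minus strand: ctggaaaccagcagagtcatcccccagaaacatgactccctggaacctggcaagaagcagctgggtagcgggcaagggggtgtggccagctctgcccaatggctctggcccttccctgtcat
Prr29 intron, chr11:106366461-106366640, minus strand: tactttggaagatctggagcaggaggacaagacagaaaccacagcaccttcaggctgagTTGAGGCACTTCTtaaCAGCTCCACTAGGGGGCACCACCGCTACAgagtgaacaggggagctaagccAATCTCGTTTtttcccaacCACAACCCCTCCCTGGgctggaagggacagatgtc
Near Icam2, chr11:106391941-106392120, minus strand: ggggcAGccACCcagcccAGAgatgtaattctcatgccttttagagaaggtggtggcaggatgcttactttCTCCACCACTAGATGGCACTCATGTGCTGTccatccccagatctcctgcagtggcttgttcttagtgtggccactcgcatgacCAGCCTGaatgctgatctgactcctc

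Promoter peaks were present in both libraries at 3 of the 6: Kcnj2, Kcnj11 and Atp1b1. Scn4a, Clcn1 and Abcc8 had none in either. Over all protein-coding genes, 65.3% had a promoter peak in replicate 1, 67.0% in replicate 2 and 64.1% in both, so 3 of 6 is close to the background for so few genes. Peak strength is given as the authors' density of cuts and as its rank, a percentile from 0 to 100 among all peaks of the same library. Densities are scaled differently in the libraries, so ranks are set side by side.

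Kcnj2, the gene of Kir2.1, had the strongest promoter peak of the 6. Its density was 5.52 in replicate 1 and 3.29 in replicate 2, and its ranks were 93.2 and 94.0, a mean of 93.6 ± 0.561 (SD, n = 2). The peak spanned the same bases in both libraries, chr11:111066001-111066200, over the single annotated start at 111066164. It held 6 footprints in replicate 1 and 4 in replicate 2. A weaker shared interval lay in the first intron, 407 bp downstream, with ranks of 36.1 and 47.0.

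Kcnj11, the gene of Kir6.2, had promoter peaks with densities of 3.11 in replicate 1 and 1.66 in replicate 2. Their ranks were 86.3 and 85.9, a mean of 86.1 ± 0.249 (SD, n = 2). The peaks overlapped but differed in extent, at chr7:46100561-46100820 in replicate 1 and chr7:46100761-46100920 in replicate 2. Both spanned the start of the gene at 46100764 on the minus strand.

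Atp1b1, the gene of the pump's beta-1 subunit, had densities of 1.90 in replicate 1 and 1.56 in replicate 2 at its strongest promoter peak, chr1:164458301-164458540. The ranks were 76.9 and 84.8, a mean of 80.9 ± 5.53 (SD, n = 2). This promoter was touched by 3 shared intervals, the most of the 6 genes. They were centred 66 bp and 513 bp upstream and 364 bp downstream of the start at 164458355. The order of mean ranks was Kcnj2, Kcnj11 and Atp1b1. The step between Kcnj11 and Atp1b1 was smaller than the spread of Atp1b1 between the libraries. The median mean rank over all such open promoters was 92.1, so Kcnj2 stood near the middle of accessible promoters and the other 2 lay below it.

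**Figure D1:**
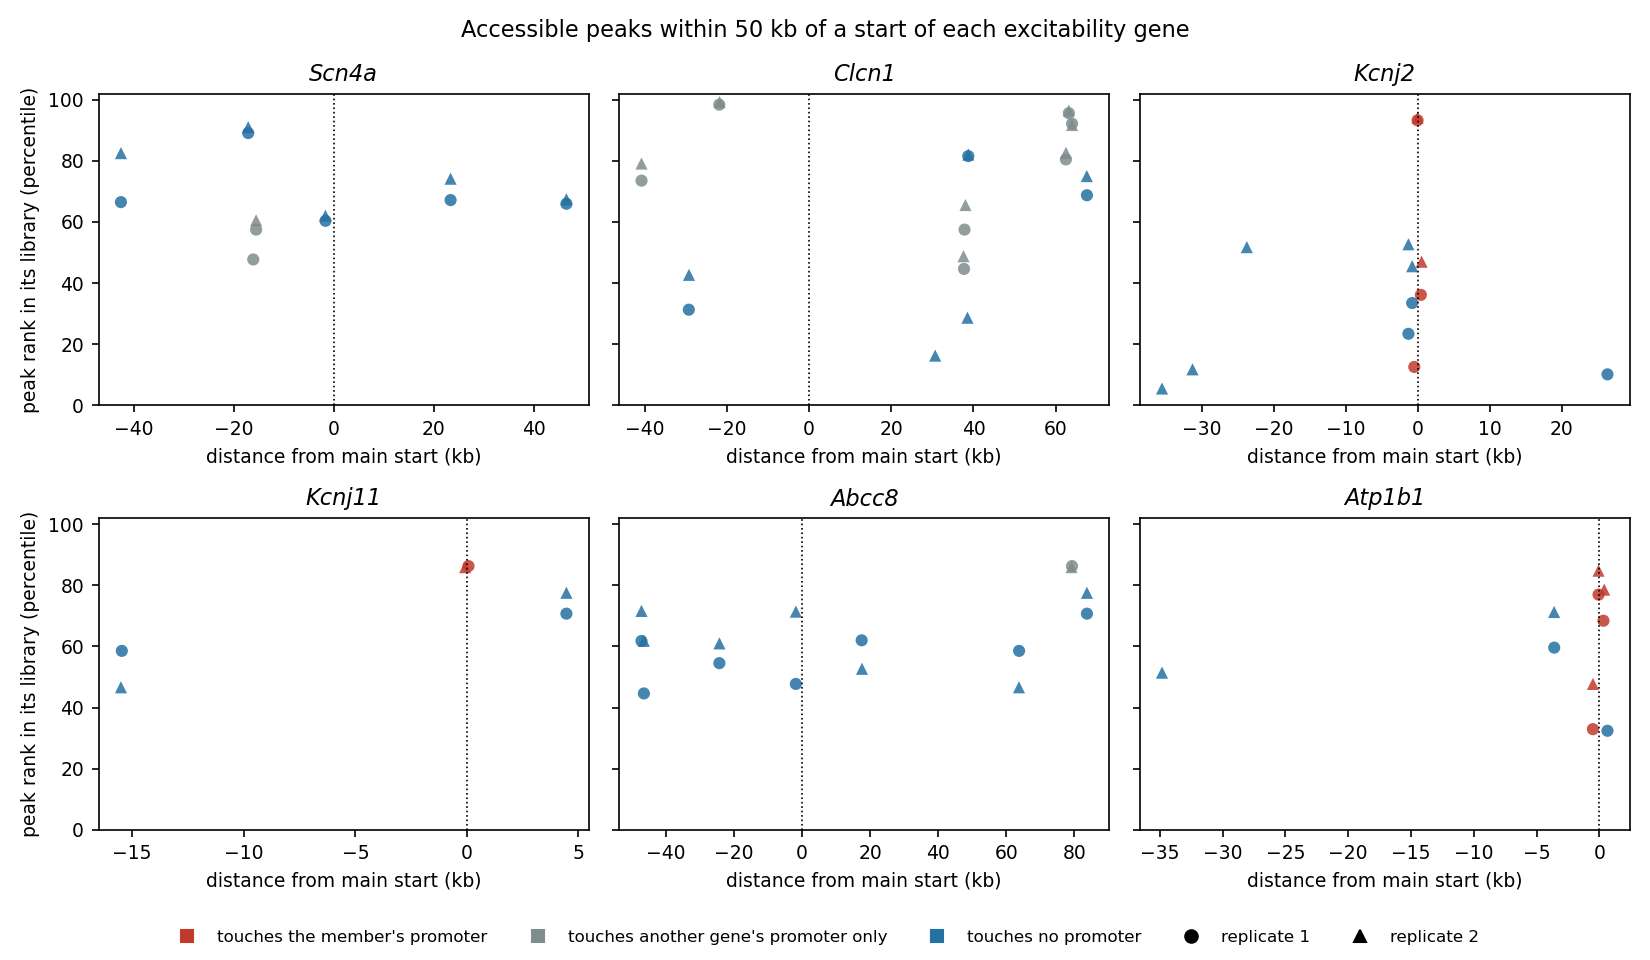
Peaks around each of the 6 genes, with distance from the main start in kb (negative upstream) on the horizontal axis and rank within the library (percentile) on the vertical axis; circles are replicate 1, triangles replicate 2. Kcnj2, Kcnj11 and Atp1b1 have a red point at the dotted start line, while Scn4a, Clcn1 and Abcc8 have none there.

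Scn4a, Clcn1 and Abcc8 also lacked weaker signal at their starts. Within 500 bp of the main start of each, 0 bases had a false discovery rate (FDR) below 0.05 in either library. The same count was 0 at 97.0% of the 6931 genes with no promoter peak in either library, so this is the usual state of such a promoter. At the accessible genes it was 924 bases in replicate 1 and 1001 in replicate 2 for Kcnj2, 984 and 1001 for Atp1b1, and 497 and 503 for Kcnj11. The nearest peak to the main start lay 1684 bp upstream in replicate 1 and 1694 bp in replicate 2 for Scn4a. For Abcc8 it lay 1799 bp and 1784 bp upstream. For Clcn1 it was much farther, 21834 bp and 21754 bp upstream, at the promoter of another gene.

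The 3 genes without a promoter peak differed in base composition. When all genes were split into 10 equal classes by the promoter's CpG ratio, the observed over the expected number of CG dinucleotides within 500 bp of the main start, Clcn1 fell in class 2 and Scn4a in class 3. In those classes 13.0% and 23.7% of genes were open at the promoter in both. Kcnj2 fell in class 5, where 75.6% did, and Kcnj11 in class 7, where 95.7% did. Abcc8 and Atp1b1 both fell in class 8, where 96.6% did. Of the 2183 genes of class 8, Abcc8 was among 40 with a promoter peak in neither library, and Atp1b1 was among 2108 with one in both.

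**Figure D2:**
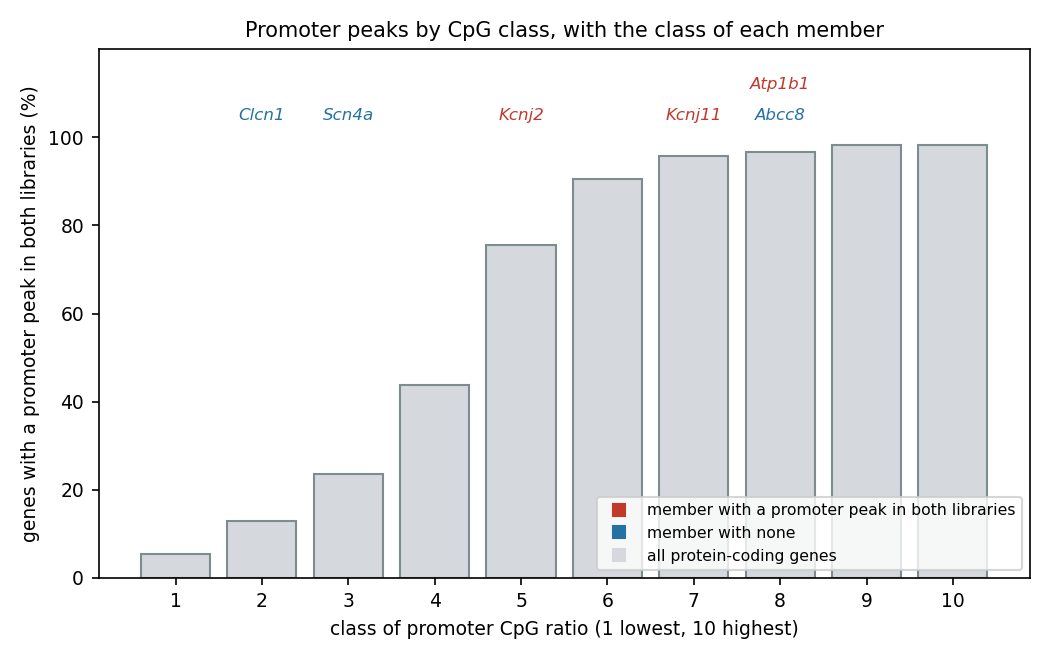
Share of protein-coding genes with a promoter peak in both libraries (%) for 10 classes of promoter CpG ratio, with the class of each of the 6 genes written above (red, promoter peak in both libraries; blue, none). Abcc8 stands without a peak in a class where 96.6% of genes have one, and Scn4a and Clcn1 stand in classes where most genes have none.

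Around Scn4a, 7 peaks in replicate 1 and 6 in replicate 2 formed 6 shared intervals, meaning overlapping peaks of both libraries joined together. The strongest lay 17162 bp upstream of the main start in an intron of the neighbouring gene Prr29, at chr11:106366461-106366640. Its ranks were 89.1 in replicate 1 and 91.0 in replicate 2, a mean of 90.0 ± 1.35 (SD, n = 2), and its sequence, printed above, carries the most footprinted bases of the 3 regions. An interval between genes, 42652 bp upstream and nearest to Icam2, had ranks of 66.5 and 82.5, a wider spread.

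An interval 1686 bp upstream, in the intron of a longer noncoding transcript of Scn4a, had ranks of 60.4 in replicate 1 and 62.0 in replicate 2. All 3 of these were distal, with a centre over 1 kb from every annotated start. The Prr29 intron interval lay only 1079 bp from a start of Prr29. With a 2 kb limit, neither it nor the interval 1686 bp upstream would be distal. The sodium channel gene thus had no peak at its main start, while these 3 intervals ranked above the middle of the longer peak lists used here. With the shorter peak lists Scn4a had 4 shared intervals, against 6. Ranks of single Scn4a intervals were not taken in those lists.

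Clcn1 had the most peaks nearby, 10 in replicate 1 and 12 in replicate 2, yet 0 of them were centred in the gene in either library. Its 9 shared intervals all lay outside it, and 6 of the 9 touched promoters of neighbours. The strongest, at the promoter of the caspase gene Casp2, had ranks of 98.3 in replicate 1 and 99.2 in replicate 2. Intervals at the promoter of Zyx, which encodes the focal adhesion protein zyxin, had mean ranks of 96.0 and 91.9. Only 1 of the 9 was distal, and it was weak, with ranks of 31.3 and 42.7. The numbers depend on the window, which is widened by annotated starts of Clcn1 up to 25807 bp downstream of the main start. Within 25 kb of any start, Clcn1 had 3 shared intervals.

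Kcnj2 had 6 peaks in replicate 1 and 7 in replicate 2, with 4 shared intervals. These all lay close to the start, and the outermost was 1333 bp upstream. That interval had ranks of 23.4 in replicate 1 and 52.7 in replicate 2, and its neighbour 813 bp upstream had ranks of 33.5 and 45.5. Peaks farther out were seen in 1 library each, 1 of them in replicate 1 and 3 in replicate 2, with ranks of 10.1 in replicate 1 and 5.50, 11.8 and 51.7 in replicate 2. The next gene, Kcnj16, which encodes another inward rectifier, had no promoter peak.

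Kcnj11 and Abcc8 are neighbours on the minus strand of chromosome 7, so their windows overlap and 3 shared intervals belong to both. They are the Kcnj11 promoter, an interval in a Kcnj11 intron at chr7:46096201-46096400, and one in an Abcc8 intron at chr7:46116101-46116360. The Kcnj11 intron interval had ranks of 70.7 in replicate 1 and 77.5 in replicate 2. The Abcc8 intron interval had ranks of 58.5 and 46.6, with its centre 181 bp from the start of a retained-intron transcript of Abcc8. Its density ratio between the libraries, 2.21, was the highest of the 31 intervals.

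Abcc8 had 8 peaks in each library and 8 shared intervals, 5 of them distal, the most of the 6 genes. Its window was also wide, because its annotated starts reach 74184 bp downstream of the main start. The strongest of its own was in an intron of Ush1c, 47134 bp upstream, with ranks of 61.8 in replicate 1 and 71.6 in replicate 2. The nearest to its start, 1784 bp upstream, had ranks of 47.7 and 71.4. Accessible intervals were thus present on both sides of the closed SUR1 promoter. They had lower ranks than the open Kir6.2 promoter, which lies 79276 bp downstream of the main start of Abcc8.

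Atp1b1 had 5 peaks in each library, and its 4 shared intervals included no distal one. Besides the promoter it had 1 interval, 3596 bp upstream, with ranks of 59.6 in replicate 1 and 71.3 in replicate 2. Its centre lay 491 bp from the start of the noncoding gene Gm32391.

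Over all windows, the 36 and 38 peaks had a median rank of 61.1 in replicate 1 and 66.5 in replicate 2, where 50 is the middle of each library. With the shorter peak lists the mean of the libraries was 49.8, so the place above the middle was lost. A peak of the other library overlapped 32 of 36 (88.9%) in replicate 1 and 32 of 38 (84.2%) in replicate 2, against 79.6% and 60.8% of all peaks. A footprint lay inside 32 of 36 (88.9%) and 33 of 38 (86.8%), against 78.4% and 83.4% of all peaks. Promoters of neighbouring genes are part of these numbers. Of the 31 shared intervals, 6 touched a promoter of the 6 genes and 7 touched a promoter of another gene. A further 11 were distal, 7 in introns and 4 between genes. The number of peaks per gene was ordinary, with 3 to 10 in replicate 1 and 3 to 12 in replicate 2. The medians over all genes were 7 and 9.

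At the 31 intervals the density in replicate 1 over that in replicate 2 had a median of 1.42 and ran from 0.925 to 2.21. Over all 72558 shared intervals the median was 1.41, with the 10th and 90th percentiles at 1.04 and 1.82. The intervals near the 6 genes thus scattered about the same ratio as the genome.

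**Figure D3:**
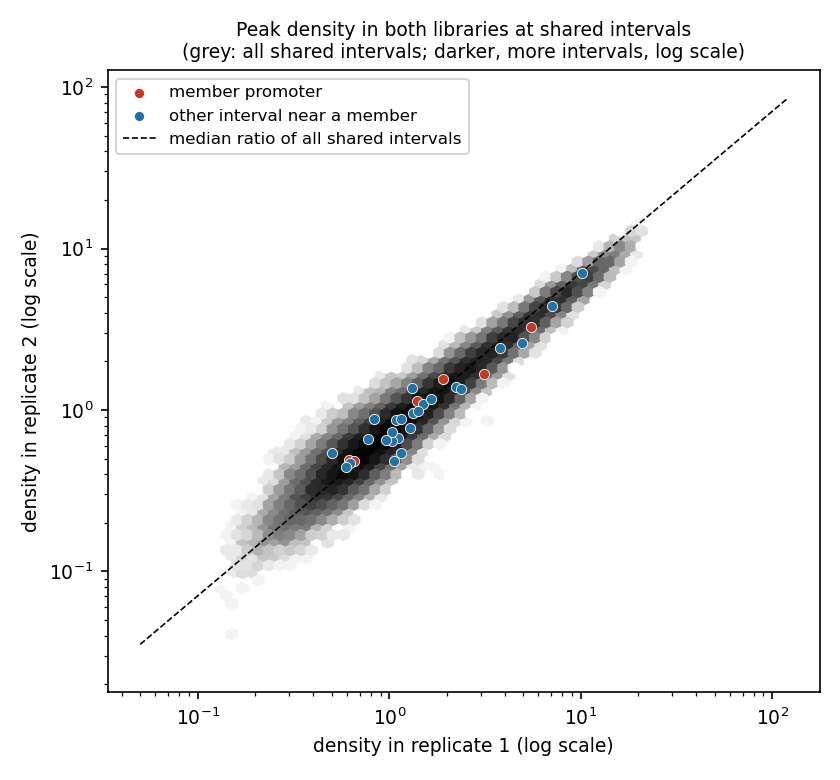
Peak density (authors' units, log axes) in replicate 1 (horizontal) and replicate 2 (vertical) at the 31 shared intervals near the 6 genes, over all 72558 shared intervals in grey; the dashed line is the median ratio of 1.41. The coloured points lie along the same band as the grey ones, with the Casp2 promoter near Clcn1 at the top.

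Sequence matches were described for E-boxes CAGCTG and CAGGTG, bound by myogenic factors such as MyoD, and for MEF2 (CTA, 4 of A or T, TAG) and CArG boxes (CC, 6 of A or T, GG). MCAT (GGAATG), NFI (TTGGCA and its full palindrome), AP-1 (TGANTCA), MEF3 (TCAGGTT), CTCF (CC, any 3 bases, AG, any base, GGG, any base, G) and GC boxes (GGGCGG) completed the list, on both strands. In the central 200 bp of the 31 intervals, CAGCTG was present in 22.6%, against 24.4% of all shared intervals, and CAGGTG in 6.45%, against 14.6%. MEF2 and CArG matches were present in 0 of 31, against 0.368% and 0.808%. GC boxes were present in 38.7%, against 26.2%. These shares depend on the position of the intervals, and 11 of the 31 were distal. Over all shared intervals GC boxes were present in 11.6% of distal ones and 49.9% of the others. For CAGCTG these shares were 29.7% and 15.7%, and for CAGGTG 15.6% and 12.9%.

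Of 56 matches in the whole intervals, 9 lay entirely inside a footprint in both libraries, in 5 intervals. At the Kcnj2 promoter this was the GC box 51 bp upstream of the start, inside the capitals of its printed sequence. At the Kcnj11 promoter they were a CTCF core and a GC box. In the Kcnj11 intron it was a CAGGTG at chr7:46096277-46096282. The other 5 were 4 GC boxes and a CTCF core at the Casp2 and Zyx promoters. No CAGCTG match lay in a footprint of both libraries, and over all shared intervals 7.02% of such matches did.

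Among the 59 stretches that were footprinted in both libraries, found in 23 of the 31 intervals, the median width was 11 bp and 17 were at least 20 bp wide. After these wide footprints had been seen, a second form of the CTCF core was added (CC, any 3 bases, AG, any 2 bases, GGC). CTCF is a zinc finger protein that binds insulators and anchors chromatin loops, and its long binding site is known to leave a wide footprint. The added core had 9 matches, 5 of them inside a footprint in both libraries, all 5 in footprints at least 20 bp wide. The core was chosen with these wide footprints in view, so its place in them follows from that choice. Whether CTCF was bound there was not tested. Over all shared intervals 47.8% of its matches were footprinted in both libraries.

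These 5 lay in the Prr29 intron and near Icam2 upstream of Scn4a, in the Kcnj11 intron, at the Kcnj11 promoter and in an Ush1c intron 46434 bp upstream of Abcc8. In the 2 printed regions upstream of Scn4a they are the longest runs of capitals. The CAGGTG in the Kcnj11 intron lies within the added core, so those letters cannot be assigned to 1 of the motifs, and at the Kcnj11 promoter both forms of the core match the same place. A match is a description of letters, and no binding was measured.

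The closed promoters also held matches. Clcn1 had a MEF2 match 51 bp upstream of its start, printed above, which 1.31% of all promoters hold, and CAGGTG matches 125 bp and 412 bp upstream. Scn4a had 1 CAGGTG, 214 bp downstream. Abcc8 had 6 GC boxes within 69 bp upstream of its start, and 60.8% of promoters hold a GC box. CAGGTG was present in all 6 promoters, against 55.7% of all promoters, and MEF2 in 1 of 6. CAGCTG was present in 3 (41.7% of all promoters), GC boxes in 4 (60.8%) and MCAT in 1 (38.3%). The first CTCF core was in 1 (9.49%) and the added core in 4 (25.2%). Matches to TTGGCA (35.8%), AP-1 (18.6%), MEF3 (12.5%) and CArG boxes (4.27%) were in 0, as was the full NFI palindrome (0.0733%).

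Of 64 related genes, 46 were open at the promoter in both libraries (71.9%, against 64.1% of all genes) and 13 in neither. The open ones were weaker, with a median mean rank of 73.2, against 92.1 over all genes open in both. With the shorter peak lists 38 of the 64 were open, and the share of all genes was not taken with those lists. Sodium channel subunits were open in 9 of 12. The highest was the accessory subunit gene Scn3b, with a mean rank of 82.2 ± 2.17 (SD, n = 2), while Scn4a itself had no promoter peak. Chloride channels and exchangers were open in 7 of 8, led by the endosomal exchangers Clcn6 (99.7 ± 0.00718) and Clcn4 (98.9 ± 0.298). Clcn1 thus differed from most of its family in promoter state, and its promoter CpG class was lower than that of Clcn4 and Clcn6, which were both in class 7.

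Inward rectifiers and the second sulfonylurea receptor were open in 7 of 14. The highest were Kcnj8, which encodes the Kir6.1 pore, at 86.9 ± 2.67, and Kcnj10 at 77.3 ± 2.99. Abcc9, the SUR2 gene, had a promoter peak with ranks of 54.2 in replicate 1 and 69.9 in replicate 2, in contrast to Abcc8. Pump subunits and FXYD regulators were open in 7 of 14, led by the beta-3 gene Atp1b3 (99.8 ± 0.156). Atp1b2, the beta-2 gene, had a mean rank of 82.5 ± 3.65, near the 80.9 ± 5.53 of Atp1b1. All 16 other muscle surface channels and anchors were open, among them the potassium channel gene Kcnn3 (90.5 ± 0.718).

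**Figure D4:**
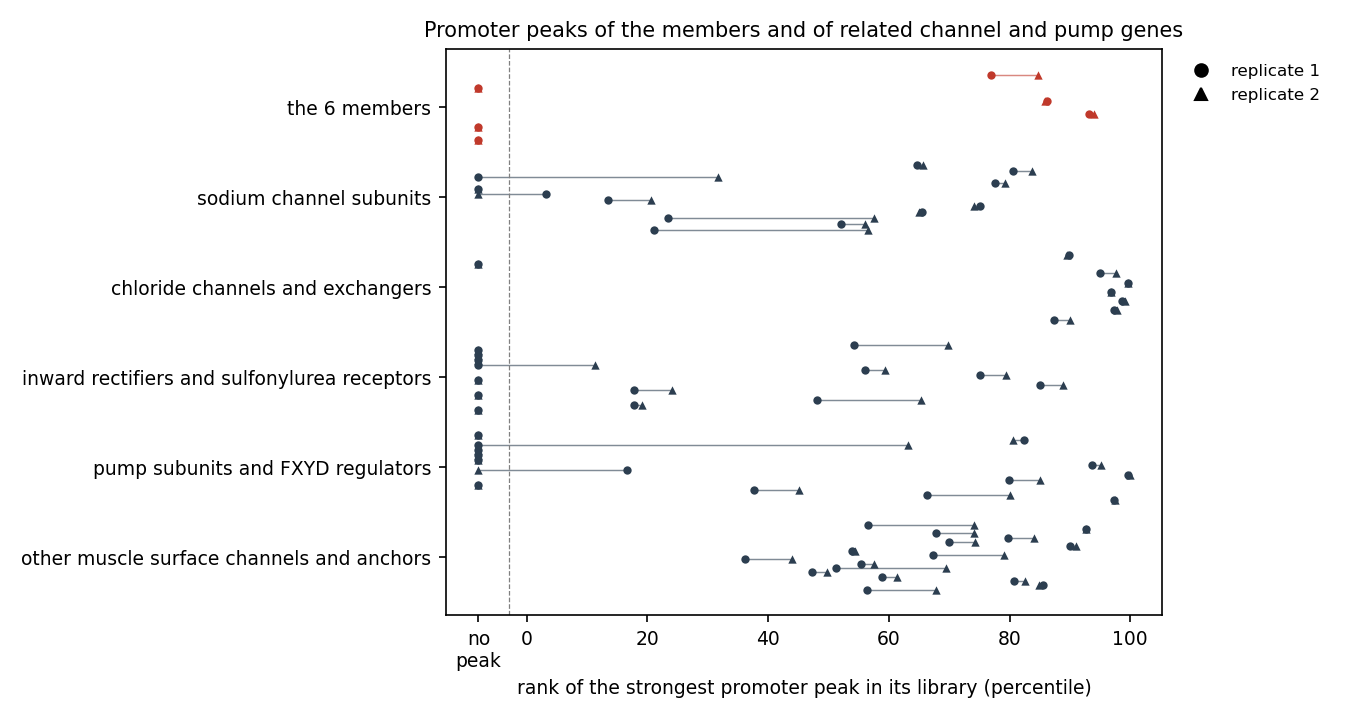
Rank of the strongest promoter peak (percentile within the library) for the 6 genes (red) and 64 related genes by group; each line joins replicate 1 (circle) and replicate 2 (triangle) of 1 gene, and genes without a promoter peak stand at the left. Of the 6 genes, 3 stand at the left and 3 between 76.9 and 94.0.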

How the data were processed

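Peaks, footprints and false discovery rate (FDR) stretches were the lists deposited for each library, on mm10 per the labels. Each was called on 1 library by itself, per the file listings deposited by the authors. Aligner, caller and thresholds: not given in the sources used here. The deposited peak signal is a cut density. All densities under 1 were whole multiples of 1 step, 0.00675 in replicate 1 and 0.00333 in replicate 2 (tolerance 0.1 step). Depth in reads is unknown, so no counting interval is given. The deposited FDR (q-value) lists hold stretches below 0.05. Footprint entries carry the constant 0.01, whose meaning is not stated, so only their positions were used.

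The longer list of each library was used (94295 and 123291 peaks), and the shorter one (54532 and 73623) as an alternative. Peaks within 50 kb were chosen by their centre. Shared peaks overlapped by at least 1 bp, and a footprint had to lie whole inside its peak. The main start is the most upstream protein-coding start in GENCODE M21. Promoter sequences came from RefSeq (GRCm38.p6), which matched 4 of the 6 genes, and other sequence from the same build. The libraries came from separate tissue samples under 1 donor entry. Nothing says whether the animals differed, so the spread between them may be technical. Instruments, HiSeq and NovaSeq, are named on the label of replicate 2 only.

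The 6 genes, the 64 related genes, markers and motifs were chosen with earlier results of these data known. All 6 genes are named, with the 3 strongest shared intervals of each besides its promoter, further intervals where they complete the account, the 2 highest genes of each related group, and, after their values were seen, Abcc9, Atp1b2 and Kcnj16. Some items that this rule selects are not reported here. Python 3.11.15 with pandas 2.3.3, numpy 2.4.6 and pysam 0.24.0 was used. The overlap and motif steps were tested on simulated data. Alternatives covered the peak list, window, promoter width, overlap, peak strength and each library by itself.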

Additional observations from a re-analysis of the deposited data

How the results depend on the processing

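Of 46 alternatives tried on results over all 6 genes, 35 left the value within the spread between the libraries or within 1.5 times the count, and 11 moved it. For the shares and the median rank, either library by itself always lies within that spread of the mean. Those alternatives are among the 35 and could not have moved the value. The number of genes with a promoter peak in both libraries was 3 under every alternative run. With the shorter peak lists the share of peaks shared was 82.6%, the median rank 49.8, the share with a footprint 91.4% and the shared distal intervals 6. These compare with 86.5%, 63.8, 87.9% and 11, as means of the libraries. Asking for 50% overlap gave 82.5% shared. A 100 kb window gave 58.5 peaks, against 37, and 22 distal intervals. A 25 kb window gave 86% with a footprint and 7 distal intervals. The distal count was also 7 with a 2 kb limit and with the strongest 50% of peaks. Using 1 library at a time, the counts were 3 genes, 36 to 38 peaks and 48 to 49 related genes with a promoter peak, and the shares were 84.2 to 88.9% shared and 86.8 to 88.9% with a footprint, with a median rank of 61.1 to 66.5. For single genes and motif matches 26 of 34 alternatives left the value in place. The mean promoter ranks all moved with the shorter peak lists. They were then 89.2 for Kcnj2, 76.4 for Kcnj11 and 67.3 for Atp1b1, against 93.6, 86.1 and 80.9. Adding the second CTCF core, chosen after seeing the data, raised the footprinted matches to 14 from 9. The cause was not tested for any of these, beyond fewer peaks in shorter lists and narrower windows. No paired analysis was possible because there is 1 group.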
